A study of Mus musculus and Homo sapiens with 9 samples.

Results

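The immunoglobulin gene segments were examined in RNA-seq libraries of mouse T cells that carried or lacked Irf2bp2. The members were the rows of the mouse count table that the annotation types as an immunoglobulin variable, diversity, joining or constant gene and whose counts summed to at least 20 over the 5 mouse libraries. This rule kept 209 of the 251 immunoglobulin rows, out of 43432 rows in all, and 12 of the rows left out held no count in any library. The members were thus selected on their measured counts, summed over all libraries, so which segments are present is a description and not a test.

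CD3+ T cells had been sorted with magnetic beads from the spleens of knockout mice (Vav-iCre+/-;Irf2bp2fl/fl, 2 libraries) and control mice (3 libraries). The labels call the controls wild type, whereas the study's methods give them as Vav-iCre-/-;Irf2bp2fl/fl, that is, with the same floxed alleles and no Cre. Vav-iCre is a Cre recombinase active in the whole blood lineage, so the deletion is not limited to T cells and reaches B cells and red cell precursors too. Mice of this cross were examined at 6 weeks of age, and neither age nor sex is given for the 5 libraries themselves. Nothing beyond the labels states that each library came from its own animal, so that p-values measure the spread between these libraries.

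The libraries held 16668577 to 37177523 counts, with control replicate 3 the shallowest, and the targeted gene Irf2bp2 had 4145, 4594 and 1915 counts in the controls and 0 and 0 in the knockouts. Of 18 T cell markers, including Cd3d, Cd3e and Cd3g of the CD3 complex, all were well above 0, and their summed level was 9420 to 10470 CPM (counts scaled to a library of 1000000) in the controls and 7362 to 7711 CPM in the knockouts. In addition, 15 markers of mature B cells summed to 51.4 to 369 CPM in the controls and 58.0 to 178 CPM in the knockouts, and none of them was at 0 in all libraries. The sorted populations were therefore T cell samples by their markers that also held B cell transcripts in each of the 5 libraries. CPM values here use library sizes scaled by TMM, a method that balances libraries on the bulk of their genes.

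An immunoglobulin is built of paired heavy and light chains, and the light chain is either kappa or lambda. In developing B cells a variable segment is joined to a joining segment, with a diversity segment between them in the heavy chain, and this rearranged exon is spliced to a constant segment that sets the class of the antibody. Mature B cells carry IgM and IgD on the surface, class switching replaces these by IgG, IgE or IgA, and plasma cells secrete the product at very high transcript levels, whereas T cells rearrange the T cell receptor loci in place of these.

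The heavy chain locus on chromosome 12 contributed 110 members, the kappa locus on chromosome 6 contributed 95 and the lambda locus on chromosome 16 contributed 4. All 8 heavy chain constant segments, the kappa constant segment Igkc and 1 lambda constant segment, Iglc2, were members. Of the variable segments, 97 of 113 heavy chain rows, 89 of 97 kappa rows and 3 of 3 lambda rows passed. All 4 heavy and all 5 kappa joining segments passed, and of 19 diversity segments only Ighd1-1 did. No row of the count table matched any of the 5 annotated lambda joining segments, and only 1 of the 4 annotated lambda constant segments had a row. Just inside the limit were Ighv8-2 with a sum of 23 counts, and Igkv18-36 and Ighv2-7 with 25 each, and just outside it were Igkv4-81 and Igkv4-54 with 19 each and Ighv1-67 with 17. All 25 counts of Igkv18-36 came from control replicate 1.

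The joining segments were searched for a short coding motif, and they are printed in full because the kappa set contains 1 segment that hardly contributed any counts. Sequences are those of the GENCODE M21 transcripts, on the GRCm38 (mm10) build, 5′ to 3′ on the coding strand. Capitals mark the match to TGGGGN in the heavy chain segments, which encodes tryptophan and glycine, and to TTCGGN in the kappa segments, which encodes phenylalanine and glycine. On the coding strand the motif was found in 4 of 4 heavy and 4 of 5 kappa joining segments, and on the other strand in none. For comparison, 15.7% of 70 T cell receptor joining segments hold TGGGGN and 15.7% hold TTCGGN. Igkj3 has no match to these letters.
Ighj1: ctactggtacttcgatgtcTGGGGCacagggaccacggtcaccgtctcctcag
Ighj2: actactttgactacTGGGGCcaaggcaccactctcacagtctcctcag
Ighj3: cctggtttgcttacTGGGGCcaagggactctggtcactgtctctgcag
Ighj4: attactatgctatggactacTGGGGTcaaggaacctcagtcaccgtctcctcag
Igkj1: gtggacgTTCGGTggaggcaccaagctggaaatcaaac
Igkj2: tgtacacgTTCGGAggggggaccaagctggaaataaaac
Igkj3: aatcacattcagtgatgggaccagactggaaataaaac
Igkj4: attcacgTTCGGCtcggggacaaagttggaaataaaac
Igkj5: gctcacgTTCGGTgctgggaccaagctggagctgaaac
The heavy segments lie on the minus strand, from Ighj1 at chr12:113429781-113429833 to Ighj4 at chr12:113428514-113428567. The kappa segments lie on the plus strand, from Igkj1 at chr6:70722562-70722599 to Igkj5 at chr6:70723886-70723923.

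The members together took a larger share of the counts in the knockout libraries. They held 1.01%, 0.529% and 0.518% of all counts in the 3 control libraries (0.686% ± 0.282, SD, n = 3) and 1.99% and 1.39% in the 2 knockout libraries (1.69% ± 0.427, SD, n = 2). The knockout libraries both lay above all controls, and the mean summed level was 2.37 times that of the controls. The gap between control replicate 1 and knockout replicate 2 was smaller than the spread between the knockouts. In bulk samples, a change in the number of cells of a type and a change in the RNA of each cannot be told apart, which holds for every level given here.

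Of the 209 members, 205 passed the filter on low counts and were tested among 15350 genes. A call needed both an adjusted p below 0.05 and a change of 1 or more on the log2 scale in either direction. With edgeR's quasi-likelihood test and Benjamini-Hochberg adjustment, 23 members (11.2%) rose in the knockout and 1 (0.488%) fell. Of all genes tested, 2.47% rose and 0.111% fell by the same rule. The log2 fold change was positive for 180 members and negative for 25, with a median of 1.29, against a median of -0.02 over all genes. At an unadjusted p under 0.05 stood 107 of the members (52.2%) and 16.2% of all genes. For 108 members (52.7%) both knockout libraries lay above every control, against 18.2% of all genes, and for 5 members (2.44%) both lay below, against 17.8% of all genes.

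The number of calls rested on single libraries, among the members as among all genes. Without control replicate 1, 1 of 200 members tested and 6 of 15114 genes rose. Without control replicate 3 it was 16 of 201 members and 357 of 15116 genes. Without control replicate 2 it was 27 of 202 members and 532 of 15103 genes. Calls are not counted without a knockout library, since a single knockout library is then left. Over the 5 fits that each left out 1 library, the median log2 fold change of the members stayed between 0.93 and 1.77. Among the 187 members with a count above 0 in each of the 5 libraries were all 23 that rose and the 1 that fell, and their median was also 1.29. Of all 209 members, 10 had under 20 counts in the controls together and 10 had under 20 in the knockouts together, so that their presence in the list depended on the group in which they were higher. None of the 23 that rose was among these, whereas Igkv11-125, the 1 that fell, was, with 10 counts in the knockouts together.

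**Figure D1:**
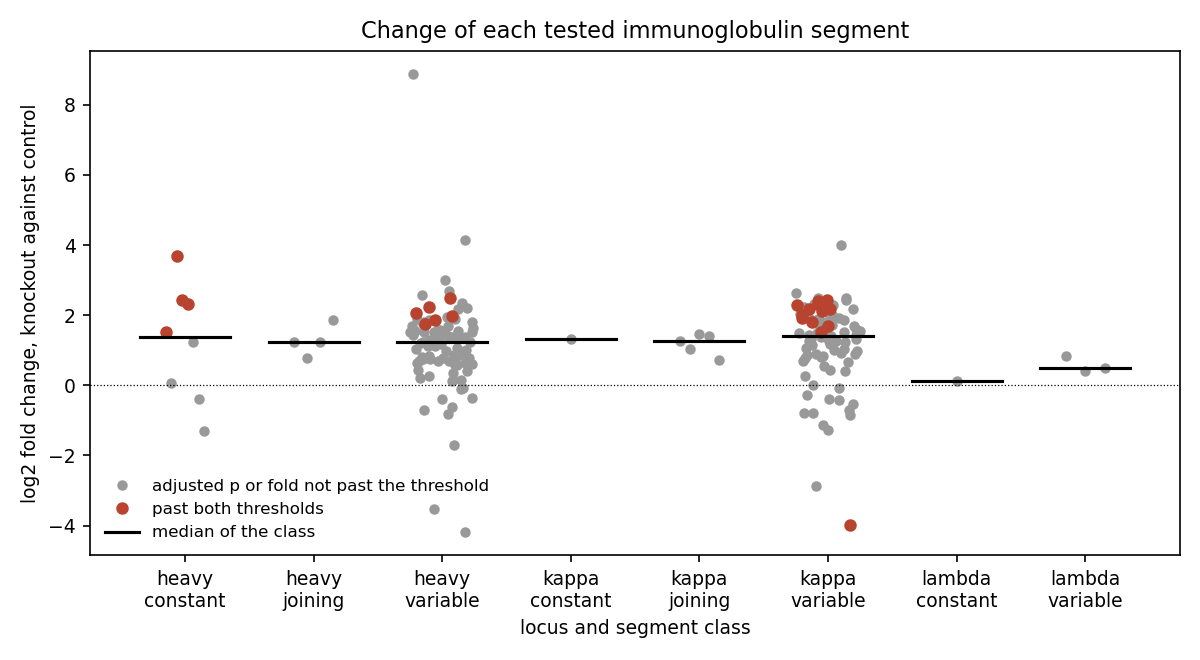
Log2 fold change of knockout against control for each of the tested immunoglobulin segments, by locus and class, with the class median as a bar (the heavy diversity segment is not drawn). Red points passed an adjusted p of 0.05 and a log2 fold change of 1, and the medians of the heavy and kappa classes all lie above 1, with those of the lambda classes at 0.12 and 0.49. The highest point is Ighv1-49, which had no count in any control, so that its fitted value of 8.89 depends on the prior count of the fit.

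Among the heavy chain constant segments, those of IgG1, IgG2b, IgG2c and IgM rose, and those of IgG3, IgA, IgD and IgE did not pass the test in edgeR. All 8 lie on the minus strand of chromosome 12, between 113254830 and 113422730. The largest change was in Ighg2b (chr12:113302965-113307933), which encodes the constant region of IgG2b. It had 153, 128 and 66.8 CPM in the controls and 1489 and 1496 CPM in the knockouts, a log2 fold change of 3.68 (SE 0.33, adjusted p = 0.0084, edgeR). The knockout libraries lay close together and far above the highest control. Ighg2c (chr12:113285325-113288932), the IgG2 class of C57BL/6-type heavy chain alleles, had 124, 114 and 80.5 CPM in the controls and 625 and 519 CPM in the knockouts. Its log2 fold change was 2.43 (SE 0.21, adjusted p = 0.0076, edgeR).

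Ighg1 (chr12:113325240-113330523), which encodes IgG1, had 23.8, 31.4 and 12.1 CPM in the controls and 85.1 and 138.7 CPM in the knockouts. It rose by 2.31 on the log2 scale (SE 0.39, adjusted p = 0.034, edgeR). Ighg3 (chr12:113356224-113361232), which encodes IgG3, had 20.4, 33.9 and 17.6 CPM against 46.1 and 66.8 CPM. The groups of Ighg3 did not overlap, but its log2 fold change of 1.23 (SE 0.31) missed the threshold at an adjusted p of 0.10 in edgeR and passed it at 0.0052 in DESeq2. The 4 IgG segments together came to 321, 308 and 177 CPM in the controls and to 2245 and 2221 CPM in the knockouts, a ratio of 8.32 between the means. Of the 50-base windows along the longest transcript, 4.33% of those of Ighg2b recurred exactly in another constant gene. The values were 6.01% for Ighg2c, 0.411% for Ighg1 and 1.65% for Ighg3. These are shares of window positions, so the share of bases covered is larger.

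Ighm (chr12:113418558-113422730), the constant segment of IgM, had 1756, 1938 and 1200 CPM in the controls and 5511 and 3891 CPM in the knockouts. Both knockout libraries lay well above the highest control, and the log2 fold change was 1.53 (SE 0.25, adjusted p = 0.030, edgeR). The table gives 1 count per gene, so that the membrane and secreted forms of IgM were not separated. The calls of Ighm, Ighg1, Ighg2b and Ighg2c were lost when control replicate 1 was left out, a fit in which 1 of 200 members and 6 of 15114 genes rose. With any 1 library left out, the log2 fold change was 1.23 to 1.73 for Ighm and 1.89 to 2.63 for Ighg1. It was 3.40 to 3.93 for Ighg2b and 2.26 to 2.56 for Ighg2c.

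Igha (chr12:113254830-113260236), which encodes IgA, had the widest spread among the abundant constant segments. It stood at 3502, 854 and 1743 CPM in the controls and at 2868 and 1366 CPM in the knockouts. The groups overlapped fully and the log2 fold change was 0.06 (adjusted p = 0.98, edgeR). Ighd, the constant segment of IgD that is spliced from the same transcripts as that of IgM in naive B cells, had 39.4, 51.3 and 7.51 CPM in the controls and 46.1 and 4.20 CPM in the knockouts. The levels of Ighd did not follow the groups. Control replicate 3 and knockout replicate 2 were low, and these were also the libraries with the lowest sums of B cell markers, 51.4 and 58.0 CPM against 178 to 369 CPM in the others. Ighe, for IgE, was at 14, 0, 11, 10 and 0 counts, too few to show a difference.

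**Figure D2:**
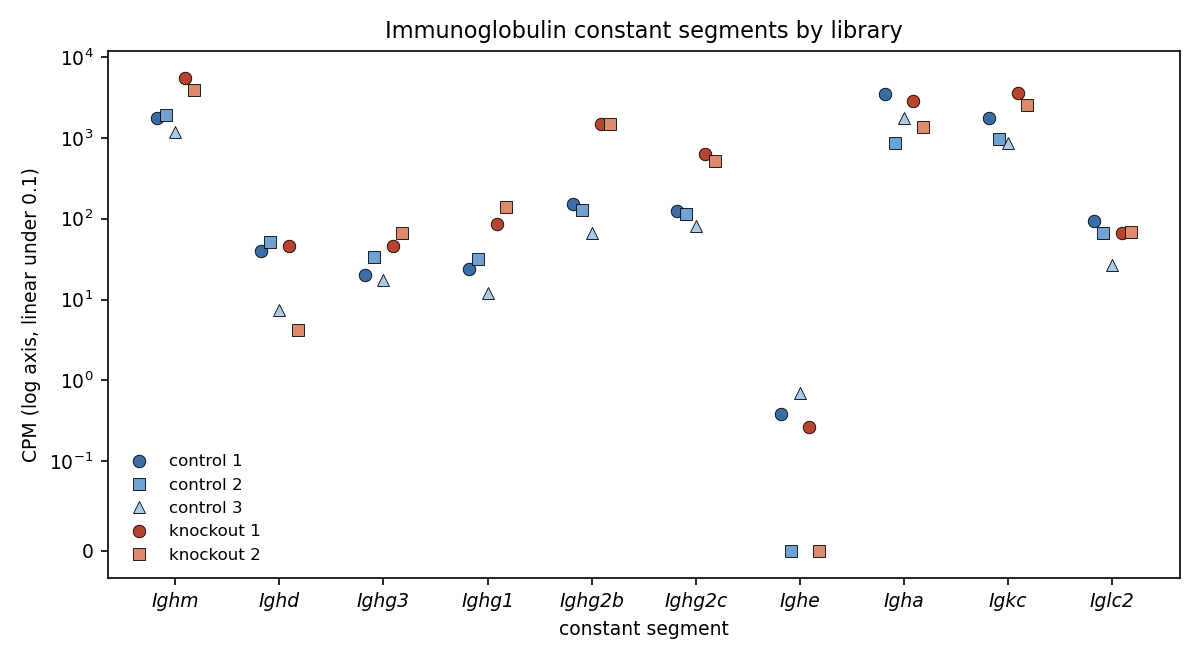
CPM of the 10 constant segments in each library, on a log axis that is linear under 0.1. Both knockout libraries lie above all 3 controls for Ighm, Ighg1, Ighg2b, Ighg2c, Ighg3 and Igkc, and the groups overlap for Ighd, Ighe, Igha and Iglc2.

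The make-up of the heavy chain constant counts shifted accordingly, and it is given as a description since the shares depend on the same counts. IgG segments made up 5.71%, 9.76% and 5.66% of these counts in the controls and 21.0% and 29.7% in the knockouts. The 95% Wilson intervals, which cover counting error only, were no wider than 5.46% to 5.86% in the shallowest library. IgA made up 62.3%, 27.1% and 55.7% in the controls and 26.9% and 18.3% in the knockouts, so that control replicate 2 lay beside knockout replicate 1 and apart from the other controls. IgM and IgD together made up 44.6% ± 16.4 (SD, n = 3) of the controls and 52.07% ± 0.01 (SD, n = 2) of the knockouts, a difference within the spread of the controls. Within IgG, the share of Ighg2b was 47.6%, 41.7% and 37.8% in the controls and 66.3% and 67.4% in the knockouts.

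The light chains were dominated by kappa in each library. Igkc (chr6:70726435-70726966, plus strand), the only kappa constant segment, had 1785, 984 and 861 CPM in the controls and 3557 and 2531 CPM in the knockouts. The groups did not overlap, but the log2 fold change of 1.33 (SE 0.33) had an adjusted p of 0.10 in edgeR. It passed in DESeq2, at an adjusted p of 0.0017. Iglc2 (chr16:19198396-19200351, minus strand), for lambda chains, had 92.6, 66.1 and 26.8 CPM in the controls and 66.8 and 67.7 CPM in the knockouts. Its groups overlapped, with a log2 fold change of 0.12 (adjusted p = 0.94, edgeR).

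Lambda took 4.93%, 6.29% and 3.02% of the light chain constant counts in the controls and 1.84% and 2.61% in the knockouts, where only Iglc2 stood for lambda. The 2 groups did not overlap (4.75% ± 1.64, SD, n = 3, against 2.23% ± 0.54, SD, n = 2). In the variable segments, where all 3 lambda rows were members, lambda took 15.0% ± 2.35 (SD, n = 3) of the light chain counts in the controls and 9.95% ± 0.18 (SD, n = 2) in the knockouts. Igkc and the 5 kappa joining segments lie within the annotated long RNA Gm30211 on the same strand, and Iglc2 overlaps Iglj2, so that reads there can be split between rows.

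Per kilobase of exon, which allows levels of different genes to be compared, Igkc was the highest constant segment in both groups, at 2274 ± 943 CPM per kb (SD, n = 3) in the controls and 5722 ± 1363 CPM per kb (SD, n = 2) in the knockouts. Ighm followed with 865 ± 204 and 2493 ± 607 CPM per kb. Igha, at 762 ± 505 CPM per kb, did not differ from Ighm in the controls beyond their spread. In the knockouts, Ighg2b reached 557 ± 1.92 CPM per kb, next to Igha at 793 ± 398 CPM per kb, whereas in the controls it stood at 43.3 ± 16.5 CPM per kb, below Ighg2c at 80.1 ± 17.2 CPM per kb and Iglc2 at 101 ± 54.0 CPM per kb.

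The joining segments all had positive log2 fold changes, from 0.71 to 1.86, and none of the 9 passed the test in edgeR, although 7 had an unadjusted p under 0.05 and 5 passed in DESeq2. The highest was Ighj3, the heavy chain segment with cctggtttgcttac before its motif, at 10.9, 5.67 and 5.01 CPM in the controls and 32.8 and 19.7 CPM in the knockouts. The groups did not overlap, and the adjusted p was 0.064 in edgeR and 0.00017 in DESeq2. Ighj4 had the smallest heavy chain change, at 25.1, 6.06 and 12.1 CPM in the controls and 29.3 and 20.6 CPM in the knockouts. Control replicate 1 lay above knockout replicate 2 for Ighj4, so that the groups overlapped.

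Igkj3 held almost none of the kappa joining counts. It had 13, 4 and 4 counts in the controls and 19 and 10 in the knockouts, or 0.303% to 0.839% of the kappa joining counts of a control and 0.320% to 0.393% of those of a knockout. The other 4 kappa joining segments took 14.2% to 37.02% each. They hold the TTCGGN match printed above and Igkj3 does not, and whether this bears on the counts was not tested. Igkj2 was the most used in all 5 libraries, at 34.6% to 37.02%, followed by Igkj1 at 26.4% to 32.7%. Igkj5 came before Igkj4 except in control replicate 2, where Igkj4 had 245 counts and Igkj5 had 214.

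**Figure D3:**
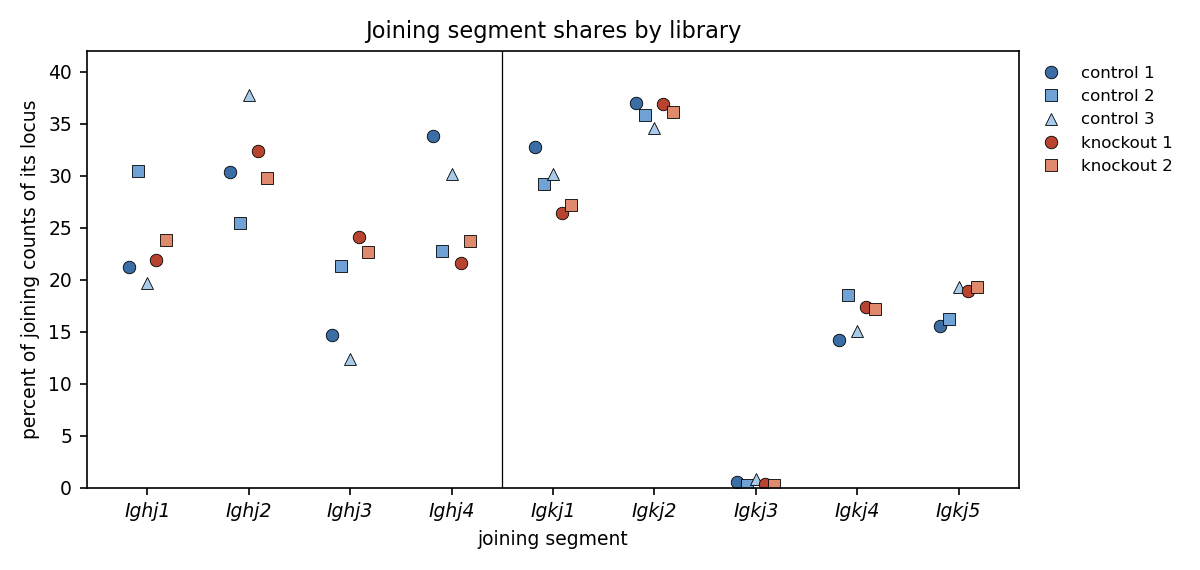
Share of each joining segment in the joining counts of its locus, in percent, for the 3 control and 2 knockout libraries. Kappa shares lie close together over libraries, with Igkj3 under 1% in all 5, whereas the heavy chain shares of the controls spread from 12.4% to 21.3% for Ighj3, below 22.7% and 24.1% in the knockouts.

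The single diversity member, Ighd1-1, lies at chr12:113482170-113482192 on the minus strand and has 23 bases, which makes it shorter than the reads.
Ighd1-1: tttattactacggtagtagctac
It had 32, 16 and 6 counts in the controls and 51 and 21 in the knockouts, and its groups overlapped in CPM (log2 fold change 0.75, adjusted p = 0.63, edgeR). The joining segments of 38 to 54 bases are likewise shorter than a read, and their totals of 1121 to 10030 counts a library were far under the 21005 to 181851 counts of the variable segments.

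The variable segments supply the part of the chain that contacts antigen, and 19 of 185 tested rose in the knockout while 1 fell. Of the heavy chain segments 6 of 95 rose and none fell in edgeR (1 had an unadjusted p under 0.05 in that direction), with a median log2 fold change of 1.22. In DESeq2 Ighv11-2 fell, as did Ighv6-7, which was not tested in edgeR and had 97 counts in control replicate 1 and none in the other libraries. Of the kappa segments 13 of 87 rose and 1 fell, with a median of 1.42. None of the 3 lambda segments passed in edgeR or DESeq2, 1 had an unadjusted p under 0.05, and their median was 0.49. Variable segments are close relatives of each other, and 28 of the 189 had another annotated segment at least 97% identical. None of the 19 that rose was among these, but some lay just under that limit. The closest relative was 96.6% identical for Ighv1-26 and 96.5% for Igkv1-135, against 88.0% for Igkv4-91 and 78.9% for Igkv15-103. Whether reads were exchanged between such relatives was not tested.

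Ighv1-26 was the most abundant heavy chain variable segment on average. It had 47.8, 17.6 and 39.7 CPM in the controls and 146 and 145 CPM in the knockouts, with a log2 fold change of 2.06 (SE 0.37, adjusted p = 0.042, edgeR). It was the top heavy chain segment in control replicate 3 (7.07% of the heavy chain variable counts) and in both knockout libraries (7.74% and 10.9%). Ighv1-53, the next on average, rose from 19.1 ± 7.31 CPM (SD, n = 3) to 64.7 ± 12.3 CPM (SD, n = 2), at an adjusted p of 0.036 in edgeR. The highest log2 fold changes among called heavy chain segments were those of Ighv1-47 (2.49) and Ighv7-1 (2.25). Ighv7-1 stood at 5.45, 8.10 and 7.07 CPM in the controls and at 36.6 and 28.6 CPM in the knockouts (adjusted p = 0.0100, edgeR). Ighv6-6 and Ighv1-80 also rose, by 1.97 and 1.85 on the log2 scale. Ighv6-3 was high in knockout replicate 1 alone, at 113 CPM, against 27.3 CPM in knockout replicate 2 and 11.1 to 18.1 CPM in the controls, and was not called.

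In the kappa locus, Igkv10-96, Igkv1-110 and Igkv1-117 were the most abundant on average, and none of the 3 passed the test in edgeR, while Igkv1-110 passed in DESeq2. Igkv10-96 had 110, 32.2 and 74.8 CPM in the controls and 239 and 108 CPM in the knockouts, so that control replicate 1 exceeded knockout replicate 2. Igkv1-110 had 95.6, 28.9 and 55.4 CPM against 148 and 146 CPM, with no overlap and an adjusted p of 0.21 in edgeR and 0.028 in DESeq2. Igkv1-135 was the most abundant kappa segment that rose, at 41.8, 38.4 and 29.5 CPM in the controls and 103 and 136 CPM in the knockouts (log2 fold change 1.70, SE 0.19, adjusted p = 0.011, edgeR).

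Of the 13 kappa segments that rose, 6 belonged to the Igkv4 family, the largest kappa family with 23 members. Igkv4-72 had the largest log2 fold change among called kappa segments, at 8.83, 6.53 and 9.70 CPM in the controls and 56.1 and 34.4 CPM in the knockouts (2.44, SE 0.27, adjusted p = 0.0100, edgeR). Igkv4-91 had 10.9, 8.24 and 9.57 CPM against 43.3 and 58.1 CPM (2.40, SE 0.20, adjusted p = 0.0072, edgeR). The family as a whole came to 113 ± 44.4 CPM (SD, n = 3) in the controls and 396 ± 127 CPM (SD, n = 2) in the knockouts, a ratio of 3.50. The other members of the 13 were Igkv15-103, Igkv14-111, Igkv19-93, Igkv8-27, Igkv9-124 and Igkv12-41, beside Igkv1-135, with log2 fold changes from 1.53 to 2.28.

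The Igkv3 family was singled out after its values were seen, and its groups overlapped. Its 8 members summed to 120, 32.4 and 37.9 CPM in the controls and to 59.3 and 48.9 CPM in the knockouts. Their median log2 fold change was -0.17, and none was called in edgeR or DESeq2 or had an unadjusted p under 0.05. Control replicate 1 was the highest of all libraries and the other controls the lowest. The difference between the families was not tested.

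The lambda segments Iglv1, Iglv2 and Iglv3 had 152, 92.0 and 78.3 CPM, 43.4, 30.4 and 17.1 CPM, and 21.0, 3.32 and 1.69 CPM in the controls. In the knockouts they had 232 and 154 CPM, 38.0 and 42.1 CPM, and 10.6 and 14.1 CPM. Iglv1 alone showed no overlap between the groups, by a margin of under 2 CPM, and none was called. It held 70.3% to 82.7% of the lambda variable counts in each library. Iglv1 overlaps the antisense gene 2010309G21Rik, and whether the counting used the strand was not given in the sources used here.

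The breadth of segment use lay in a narrow range over the libraries. The effective number of heavy chain variable segments, the inverse Simpson index of their shares, was 41.4 to 46.3 in the controls and 34.4 and 38.7 in the knockouts. For kappa it was 28.0 to 32.2 in the controls and 30.1 and 30.4 in the knockouts. In each library 15 to 17 heavy chain segments and 12 to 13 kappa segments were enough to hold 50% of the variable counts of their locus. The heavy chain values of the knockout libraries lay below those of all controls, and those of kappa lay among them.

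Igkv11-125 was the only member called lower in edgeR. It was a member only through its control counts, the group in which it was high, so its direction was in part fixed by the rule for members. It had 133, 60 and 22 counts in the controls and 3 and 7 in the knockouts, that is, 3.59, 1.66 and 1.38 CPM against 0.0783 and 0.197 CPM. The log2 fold change was -3.99 (SE 0.73, adjusted p = 0.043, edgeR), and the call was lost without control replicate 1. With any 1 library left out, the log2 fold change lay between -4.78 and -3.44. The other 4 members with both knockouts below all controls were Ighv11-2, Ighv5-2, Igkv5-39 and Igkv6-20, which were named after their values were seen. None of these 4 was called in edgeR, and Ighv11-2 was called lower in DESeq2 (log2 fold change -4.19, adjusted p = 0.036).

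Control replicate 2 stood apart by its heavy and kappa variable segments. Igkv14-126 held 1940 of its 21394 kappa variable counts, or 9.07% (95% Wilson interval 8.69% to 9.46%), and was its top kappa segment, against 0.122% to 0.437% in the other 4 libraries. Ighv11-2 held 926 of its 13054 heavy chain variable counts, or 7.09% (6.67% to 7.55%), and was its top heavy chain segment, against 0.0180% to 0.513% elsewhere. The pair is known as the heavy and light chain of B-1a cells that bind phosphatidylcholine, a set of B cells with recurrent, little diversified receptors. These segments were picked after their values were seen, and the shares are a description of this library. Ighv11-2 is 98.9% identical to Ighv11-1, so that the counting may have split or moved reads between them, while the closest relative of Igkv14-126 is 91.6% identical.

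The 3′ ends of these segments are printed beside Igkv11-125 and beside the most abundant heavy chain segment and the most abundant kappa segments on average, since this end, from the conserved cysteine codon on, is the germline part of the third loop that contacts antigen. Each is the last 60 bases of the GENCODE M21 transcript on the coding strand, and capitals run from the cysteine codon to the end.
Ighv11-2: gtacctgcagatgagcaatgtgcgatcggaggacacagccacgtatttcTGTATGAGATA
Ighv1-26: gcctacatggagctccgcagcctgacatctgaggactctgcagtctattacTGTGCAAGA
Igkv14-126: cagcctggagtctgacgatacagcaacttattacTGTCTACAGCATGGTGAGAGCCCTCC
Igkv11-125: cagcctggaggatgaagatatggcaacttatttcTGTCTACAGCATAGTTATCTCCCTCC
Igkv10-96: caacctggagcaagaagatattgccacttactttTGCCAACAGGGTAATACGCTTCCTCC
Igkv1-110: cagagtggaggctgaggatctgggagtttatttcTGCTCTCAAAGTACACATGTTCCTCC
On GRCm38 they lie at chr12:114048241-114048300 and chr12:114788372-114788431 (both minus strand), chr6:67896583-67896642 and chr6:67913993-67914052 (both plus strand), chr6:68631963-68632022 (minus strand) and chr6:68271208-68271267 (plus strand), in the order printed.

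Of 144 variable segments with at least 100 counts in their highest library, 11 had a share there of over 3 times that in any other library. Control replicate 2 was that library for 5 of them (Igkv14-126, Ighv11-2, Igkv8-18, Ighv8-5 and Ighv9-1), control replicate 1 for 3, knockout replicate 1 for 2, knockout replicate 2 for 1 and control replicate 3 for none. Ighv1-49 had 17 and 113 counts in the knockout libraries and none in the controls, and took 0.240% of the heavy chain variable counts of knockout replicate 2. Control replicate 2 also had the highest sums of B cell markers (369 CPM) and of myeloid markers (568 CPM) of the 5 libraries, and their part in its segment use was not tested.

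**Figure D4:**
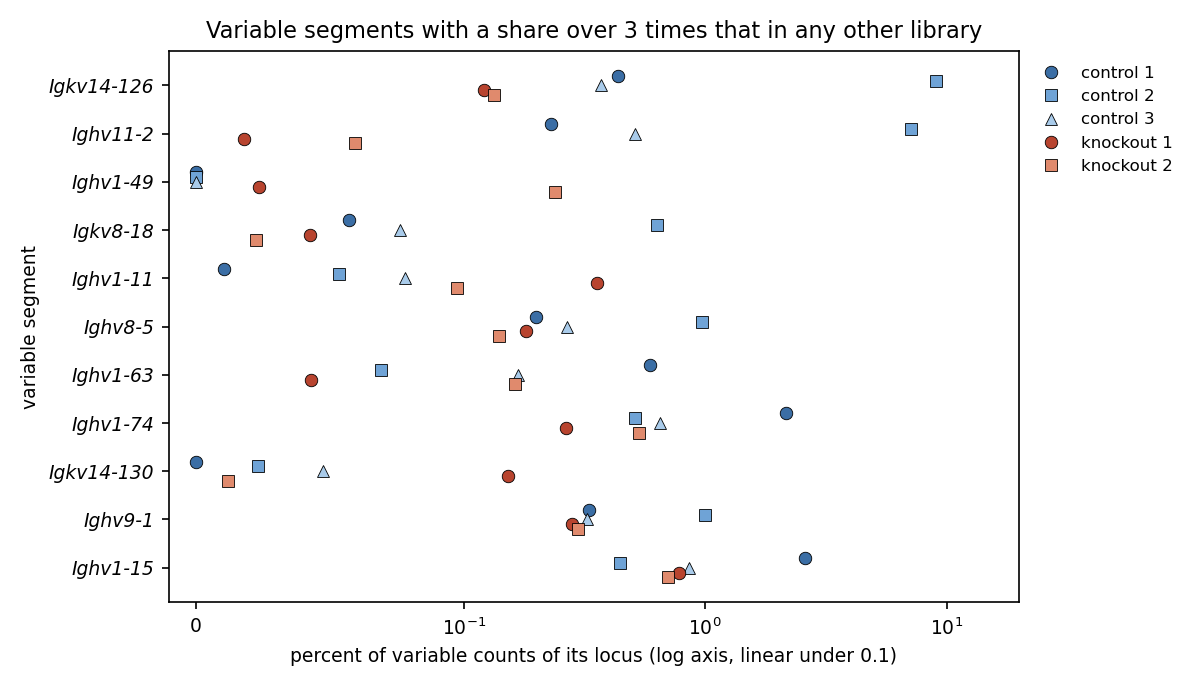
Share of 11 variable segments in the variable counts of their locus, in percent on a log axis that is linear under 0.1, for each library. These are the segments whose highest share was over 3 times that in any other library, and Igkv14-126 and Ighv11-2 in control replicate 2, at 9.07% and 7.09%, are the farthest from the rest.

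Other genes of the antibody-forming lineage were read from lists, and the 8 lists used were chosen with results of these data known. Of 16 plasma cell markers all had a positive log2 fold change (median 0.65) and 2 rose, namely Prdm1 and Ell2. Prdm1, which encodes Blimp-1, a repressor of transcription that promotes plasma cell formation, rose by 1.42 (adjusted p = 0.032, edgeR). Ell2, an elongation factor of secreted heavy chain transcripts, rose by 1.88 (adjusted p = 0.012, edgeR). The plasma cell markers summed to 874 to 1695 CPM in the controls and to 1724 and 2209 CPM in the knockouts. Jchain, which links the units of IgM and IgA and made up 35.2% to 60.7% of that sum in a library, had 1029, 308 and 456 CPM in the controls and 1311 and 991 CPM in the knockouts. Its groups overlapped, as did those of Igha, and control replicate 1 was the highest control for both.

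The genes of the B cell lists were not called in either direction in edgeR. Of 15 B cell markers none passed in edgeR or DESeq2 or had an unadjusted p under 0.05, and 14 had a negative log2 fold change, with a median of -1.05. Cd79a and Cd79b, the signalling chains of the B cell receptor, had 32.8, 62.1 and 5.38 CPM and 34.2, 62.8 and 13.1 CPM in the controls, and 22.4 and 9.44 CPM and 22.7 and 9.04 CPM in the knockouts. Of 28 genes of the B cell receptor pathway 26 were tested and none was called in edgeR or DESeq2 (median -0.18, 3 with an unadjusted p under 0.05). Of 7 genes of the pre-B receptor and of recombination 4 were tested and none was called in edgeR (median -0.84, 2 with an unadjusted p under 0.05, 1 lower in DESeq2), while Vpreb2, Igll1 and Rag2 were at 0 in all libraries. Of the T cell receptor segments, which are rearranged in the same way, 191 were tested and none was called in edgeR (median -0.22, 20 with an unadjusted p under 0.05, all of them lower, and 1 lower in DESeq2).

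Markers of other cell types also moved between the groups. Of 16 erythroid markers tested 10 rose and none fell (median 2.98), and their sum was 670 to 2382 CPM in the controls and 5422 and 7417 CPM in the knockouts. Of 10 proliferation genes 4 rose (median 1.92), with sums of 123 to 253 CPM against 867 and 959 CPM. Of 16 myeloid markers 14 were tested and none was called in edgeR (median -0.70, 1 with an unadjusted p under 0.05, 1 lower in DESeq2). None of the 18 T cell markers was called in edgeR or DESeq2, with a median of -0.40. In edgeR 9 had an unadjusted p under 0.05, all lower, and 1 of these had an adjusted p under 0.05 but too small a change. The part of these shifts in the immunoglobulin levels was not tested, and there were again 23 higher and 1 lower members when the immunoglobulin genes themselves were left out of the scaling.

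**Figure D5:**
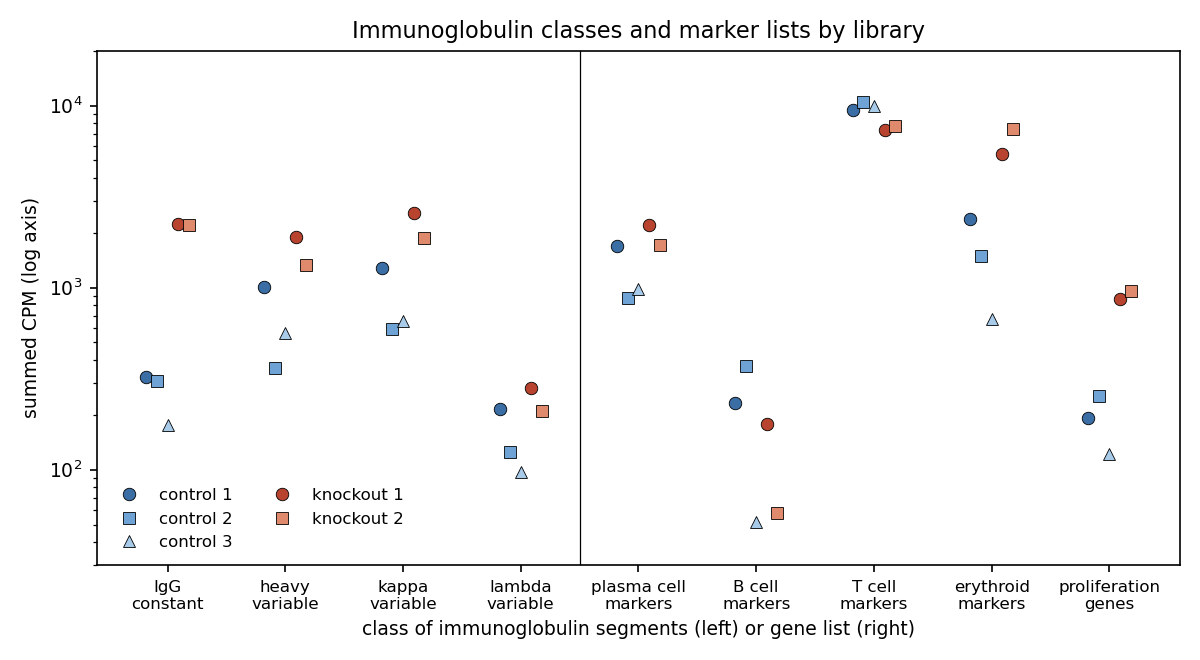
Summed CPM, on a log axis, of 4 classes of immunoglobulin segments (left) and 5 gene lists (right) in each library. The IgG constant segments, the plasma cell and erythroid markers and the proliferation genes are higher in both knockout libraries than in all controls, the B cell marker sums overlap between the groups, and the T cell marker sums are lower in both knockouts.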

How the data were processed

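The members and gene lists were chosen with earlier results of these data known. The authors deposited raw whole-number counts for each Ensembl gene in each library, neither normalized nor pooled. Per the labels and the submitters' processing notes, reads were aligned with HISAT2 2.2.0 to mm10 and quantified with StringTie, and how its output became counts is not given in the sources used here. Gene types, lengths and transcripts are from GENCODE M21. Identifiers matched for 42462 of 43432 rows. After filterByExpr and TMM scaling, knockout and control libraries were compared by glmQLFTest of edgeR 4.0.16 (R 4.3.3). Each library counted as 1 replicate, since replicates differed by more than counting noise (chi-square per gene from 32.0 to 97.1). On simulated counts, edgeR recovered 172 of 200 changed genes among 14984, with 14 false calls, and DESeq2 recovered 191 of 200 among 15350, with 44 false calls. The changed genes were drawn from those above a set mean level and were changed beyond the fold threshold. This recovery therefore does not carry over to segments with few counts or smaller changes. Every constant and joining segment was named, with, per locus, the 5 most abundant variable segments and the 5 called ones that changed most each way; other segments were chosen after their values were seen. The alternatives were DESeq2 1.42.0, other scalings and filters, counts divided by 2, all rows, the replicate number as a block and each library left out.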

Additional observations from a re-analysis of the deposited data

Results flagged for a closer look

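Signal was found in immunoglobulin rows that are not members because the annotation types them as pseudogenes. Igkv11-106 (chr6:68339527-68339995), typed as a kappa variable pseudogene, had 104, 73 and 26 counts in the controls and 851 and 478 in the knockouts, or a mean of 17.84 CPM in the knockouts against 2.15 CPM in the controls. All 5 libraries held counts of it, and both knockout libraries lay above all controls. Ighv1-33 (chr12:114843651-114844083), typed as a heavy chain variable pseudogene, had 0, 0 and 0 counts in the controls and 16 and 7 in the knockouts, a mean of 0.3074 CPM. The difference of Igkv11-106, which entered the fit across all genes, had a log2 fold change of 3.03 (SE 0.34, adjusted p = 0.011, edgeR), whereas Ighv1-33 did not pass the filter on low counts and was not tested.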

How the results depend on the processing

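The count of 23 higher members stayed between 22 and 29 under RLE or upper-quartile scaling, TMM without immunoglobulin genes, a looser filter (1 count in any library), a stricter one (10 in each), all rows, and counts divided by 2. It was 68 in DESeq2, where 3 members fell, and 51 with the replicate number as a block, and with the stricter filter 0 members fell. Among all genes, 379 rose in the main fit, 755 in DESeq2 and 407 with the block. Leaving out 1 control library each gave 1 to 27 higher and 0 to 1 lower members, and the cause was not tested. The median log2 fold change, 1.29, kept its sign throughout. The labels state no pairing of the samples by replicate number, so the block shares only a number. The deviations of same-numbered libraries correlated by 0.15 and -0.16. These values cannot decide on pairing, since the deviations of the knockout libraries from their group mean mirror each other. Under the block the log2 fold change of Iglc2 was -0.22, against 0.12 without it. With 1 library left out, Igha ranged from -0.60 to 0.72, Ighd from -2.99 to 0.46 and Iglc2 from -0.24 to 0.52. Of the 40 named segments, 15 lost the call without control replicate 1, 4 without control replicate 3, 2 without control replicate 2 and 1 under the block. In DESeq2 11 passed the threshold anew, and 9 did under the block. At most 2 did so in any other fit with both knockout libraries. Over all alternatives, 7 comparisons changed sign. With 3 and 2 libraries, a median standard error of 0.56 on the log2 scale limits what can be called.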

Other observations

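In J.gamma1 cells, a human T-ALL line sequenced in the same series, immunoglobulin segments were close to absent. Of 205 human rows of these types 7 reached 20 counts over the 4 libraries. All such rows together held 114 to 152 counts a library, or 0.000377% to 0.000540% of the counts, against 0.518% to 1.99% in the mouse libraries. The tables differ in species, annotation and cell source, so that the values are set side by side without a test.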
